A study of Mus musculus with 2 samples.

Results

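The histone cluster genes of the mouse were described here in T cells from melanoma tumours. They were all genes whose symbol begins with Hist1h, Hist2h, Hist3h or Hist4h, which gave 67 of the 32285 genes in the deposited matrix: 6 linker histone H1 genes, 18 H2A, 18 H2B, 12 H3 and 13 H4 genes. The testis genes Hist1h1t, Hist1h2aa and Hist1h2ba held 1, 0 and 0 UMIs (unique molecular identifiers, each standing for a captured RNA molecule), and the other 64 were counted as replication-dependent. The study profiled single T cells from tumours of C57BL/6J mice that had received the bacterium L. reuteri (LR) or PBS. Cells were enriched for CD90.2 and 8000 live CD8+ cells were sorted per mouse. Cells of 1 condition were combined after the sort, and the hashtagged cells of 8 mice, 4 per condition, shared 1 lane, so handling after the sort cannot be told apart from treatment. The hashtag names placed cells in LR mice 1 to 4 and PBS mice 6 to 9. All animals carried a melanoma; the sources used here do not give the tumour line, the age of the mice or the dose.

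Histone cluster genes supply the bulk of the histones that package newly copied DNA, and their mRNAs rise as a cell enters S phase and are destroyed when replication ends. H2A, H2B, H3 and H4 form the nucleosome core, and H1 binds the linker DNA between nucleosomes. Their mRNAs lack introns and mostly end in a stem-loop in place of a poly(A) tail, which the protein Slbp binds. Single-cell kits such as the Chromium 5′ kit used here prime on poly(A), so the values below cover those histone mRNAs that were captured, and the share that was missed was not measured. Hist1h1c, Hist1h2bc and Hist2h2be are known to give polyadenylated mRNA as well.

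All 67 genes matched GENCODE M21 on GRCm38, with 54 on chromosome 13, 10 on chromosome 3, 2 on chromosome 11 and 1 on chromosome 6, and 63 had a transcript of a single exon. A stem-loop of 16 bases was found in annotated transcripts of 46 of the 67 genes and in 15 other genes, among 55450 genes searched. The commonest form, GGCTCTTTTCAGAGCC, stood in 26 members, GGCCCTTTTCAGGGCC in 7 and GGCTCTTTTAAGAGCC in 6. The 3 forms differ in the stem or the loop, and the lines below show them in the 3′ untranslated region of members that the results turn on, with the stem-loop in capitals and the flanking bases in lower case, 5′ to 3′ on the gene's strand. Hist1h2ae lies at chr13:23570517-23571220 (minus strand, stem-loop at chr13:23570668-23570683), Hist1h1c at chr13:23738808-23740367 (plus, stem-loop at chr13:23739512-23739527), Hist1h4d at chr13:23581598-23582735 (plus, stem-loop at chr13:23581950-23581965), Hist1h3c at chr13:23744973-23745602 (minus, stem-loop at chr13:23745047-23745062) and Hist3h2ba at chr11:58948920-58949533 (plus, stem-loop at chr11:58949349-58949364).
Hist1h2ae: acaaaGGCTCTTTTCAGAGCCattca
Hist1h1c: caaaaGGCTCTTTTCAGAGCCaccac
Hist1h4d: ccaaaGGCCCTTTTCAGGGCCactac
Hist1h3c: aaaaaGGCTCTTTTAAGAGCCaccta
Hist3h2ba: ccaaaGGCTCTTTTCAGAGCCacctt
Hist1h2ae, Hist1h1c and Hist3h2ba carry the same stem-loop, and whether its form goes with the level in cycling cells was not tested. The annotated transcript of Hist1h2ae runs 151 bases past the stem-loop, that of Hist1h1c 840, Hist1h4d 770, Hist3h2ba 169 and Hist1h3c 74 bases.

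Promoters were taken from RefSeq (GRCm38.p6), which held 62 of the 67. The letters CCAAT, on either strand, stood in all 50 H1, H2A, H2B and H3 promoters in the table and in 3 of 12 H4 promoters, against 37.4% of all 32851 promoters of the same length. TATAAA stood in 35 of 62 (56.5%, against 13.6% of all), ATTTGCAT, the octamer, in 13 (7 H2A and 6 H2B genes; 20.97% against 1.74%), and AAACACA, known from H1 promoters, in 5 of 6 H1 genes and 9 of 62 in all (14.5% against 7.18%). A match is a run of letters, on either strand, and not a shown binding site, and none of the 4 motifs contains another. The lines give the 150 bases before the start of a divergent H2A and H2B pair, an H1 gene and an H4 gene, with all matches in capitals. Their positions are chr13:23571221-23571370 (minus) for Hist1h2ae, chr13:23571250-23571399 (plus) for Hist1h2bg, chr13:21780626-21780775 (minus) for Hist1h1b and chr13:23581418-23581567 (plus) for Hist1h4d.
Hist1h2ae: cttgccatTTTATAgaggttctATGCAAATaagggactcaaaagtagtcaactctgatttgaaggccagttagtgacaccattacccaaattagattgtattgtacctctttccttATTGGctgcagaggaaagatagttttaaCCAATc
Hist1h2bg: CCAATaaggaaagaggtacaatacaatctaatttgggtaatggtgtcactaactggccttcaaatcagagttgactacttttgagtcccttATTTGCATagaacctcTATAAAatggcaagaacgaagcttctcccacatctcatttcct
Hist1h1b: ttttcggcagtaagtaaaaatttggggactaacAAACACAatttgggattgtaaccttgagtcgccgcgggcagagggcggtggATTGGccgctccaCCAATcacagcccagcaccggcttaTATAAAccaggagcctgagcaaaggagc
Hist1h4d: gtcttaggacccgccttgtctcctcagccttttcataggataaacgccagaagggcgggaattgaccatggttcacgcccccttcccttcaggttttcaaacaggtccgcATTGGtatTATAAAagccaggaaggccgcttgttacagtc
The Hist1h2ae and Hist1h2bg windows overlap and read the same bases from opposite strands, so the octamer, the TATAAA match and a CCAAT are shared between them. The Hist1h2ae window shown holds no other TATAAA match, and reads this one as TTTATA.

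After filtering, 10406 cells held a total of 2627575 to 9294975 gene UMIs per mouse, with a median of 2953 to 3604.5 UMIs per cell. Cells were classed by UMIs alone: CD8 (at least 1 UMI of Cd8a or Cd8b1, with Cd4 at 0), Foxp3-positive (a Foxp3 UMI and no Cd8a or Cd8b1 UMI) and CD4 (a Cd4 UMI with neither). Cells with a UMI of the proliferation gene Mki67 were called cycling. This gave 644 cycling and 5386 non-cycling CD8 cells, 130 and 367 Foxp3-positive cells, and 80 and 1243 CD4 cells, while 2556 cells entered no class. Of the CD8 cells, 128 carried a Foxp3 UMI. A mouse entered a comparison with at least 10 cells in each class, which left 6 mice for cycling Foxp3-positive cells and 3 for cycling CD4 cells. T cell markers (Cd3d, Cd3e, Cd3g, Trac, Trbc2) summed to 3392 to 4286 CPM (UMIs of a gene per 1000000 summed UMIs) in cycling CD8 cells. Myeloid markers summed to 40.2 to 305 CPM there in 7 mice and to 1364 CPM in LR mouse 3. They summed to 49.0 to 926 CPM in non-cycling CD8 cells, 479 to 813 CPM in cycling and 499 to 2671 CPM in non-cycling Foxp3-positive cells. NK, erythroid and melanoma markers stayed at or below 16.2 CPM in the CD8 and Foxp3-positive classes. B cell markers of these classes, and fibroblast or endothelial markers of any class, are not reported here. In cycling CD4 cells of 3 mice T cell markers summed to 2881 to 3834 CPM, B cell markers to 69.5 to 143, myeloid markers to 81.4 to 166 and NK markers to at most 10.2 CPM. In non-cycling CD4 cells T cell markers summed to 3068 to 3880 CPM, B cell markers to 109 to 225, myeloid markers to 15.5 to 454 and NK markers to at most 34.3 CPM. Erythroid and melanoma markers were at 0 in cycling and at most 15.5 and 10.6 CPM in non-cycling CD4 cells.

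Over all kept cells the 67 genes gave 61510 UMIs, 0.146% of all gene UMIs. Cells with a Mki67 UMI were 9.78% of cells and held 22.0% of all gene UMIs and 58.3% of the histone UMIs. A UMI of a 5′ library stands for a molecule and was not scaled to gene length. Hist1h2ae (9049 UMIs) and Hist1h1e (8823) held most, followed by Hist1h1b (5056), Hist1h1c (4584) and Hist1h1d (3677), and these 5 genes made up 50.7% of the histone UMIs. At the other end, 52 of 67 genes had 100 or more UMIs, 4 had 1 to 9 and 2 had none. Some copies within the clusters are nearly alike: 33 of the 67 shared at least 50% of their 50-base words with another transcript, and 11 shared all words of their first 100 bases, so that reads of such genes can be split between copies or lost and their single values are uncertain. In contrast, 35 members shared no word in their first 100 bases. Hist1h2ae, Hist1h1b, Hist1h1c, Hist1h1e and Hist1h2ab were among these, while Hist1h2ap shared 21 of 51. The gene span of Hist1h2be (chr13:23583670-23621124) overlaps that of Hist1h1e (chr13:23620629-23622558) on the same strand.

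Histone cluster genes were far higher in cycling than in non-cycling CD8 cells in every mouse. The summed level of the 64 replication-dependent genes was lowest at 2614, median 3811 and highest at 4575 CPM in cycling CD8 cells, against 581, 766 and 807 CPM in non-cycling CD8 cells of the same 8 mice. The classes did not overlap, and the ratio within a mouse was 5.09 ± 1.25 (SD, n = 8), from 3.48 in LR mouse 2 to 7.25 in PBS mouse 7. H2A genes had the highest summed ratio within a mouse, 10.7 ± 3.39, and H4 genes the lowest, 2.14 ± 0.337, with H1 at 4.08 ± 0.775, H2B at 3.60 ± 1.05 and H3 at 3.65 ± 0.777 (each SD, n = 8). These summed ratios are descriptions with no test.

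**Figure D1:**
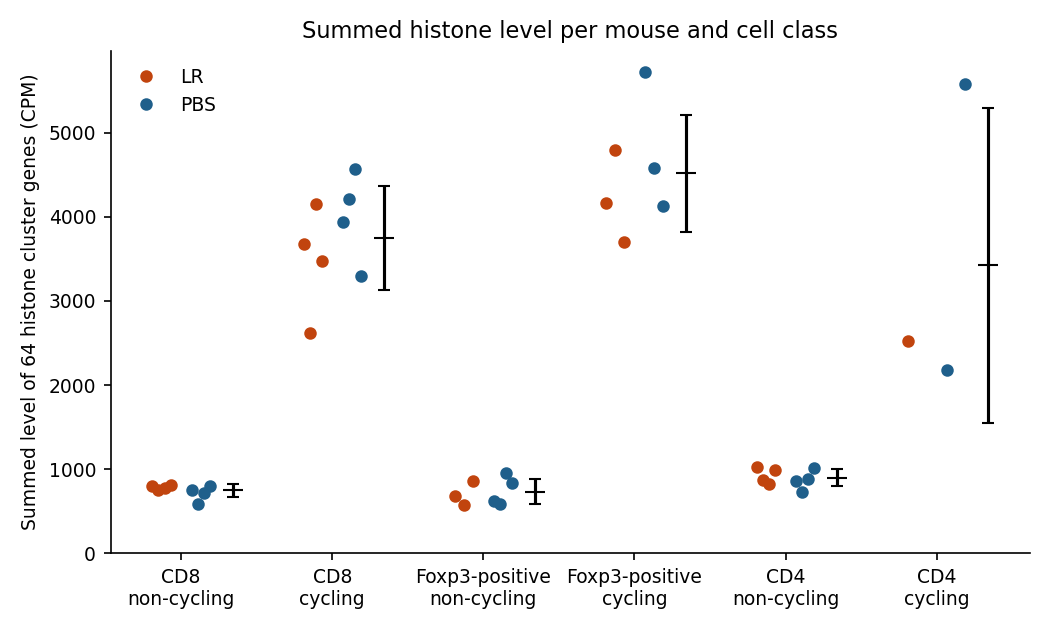
Summed level (CPM, vertical axis) of the 64 replication-dependent histone cluster genes in each cell class, with 1 point per mouse (LR and PBS in separate colours) and the mean with SD as a black bar. Cycling CD8 mice lie between 2614 and 4575 CPM and non-cycling CD8 mice between 581 and 807 CPM; cycling CD4 cells could be summed in 3 mice only.

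Cycling cells also yielded more RNA: the median was 7760 UMIs per cell in cycling and 3586.5 in non-cycling CD8 cells. CPM corrects the level for depth but not the chance of seeing a gene at all. With each cell thinned to 3000 UMIs, 506 of 545 cycling CD8 cells (92.8%, 95% Clopper-Pearson interval 90.3 to 94.9) and 2902 of 3585 non-cycling cells (80.9%, 79.6 to 82.2) held a UMI of a replication-dependent gene, after leaving out 99 and 1801 shallower cells. Unthinned, the shares were 97.2% and 87.2%. The share with 5 or more such UMIs in thinned cells was 45.0% in cycling and 8.81% in non-cycling CD8 cells. Intervals cover counting error only, no class here should lack histone mRNA, and the part that free RNA plays in the non-cycling shares was not tested. The gate leaves proliferation genes in non-cycling cells: 4355 of the 5386 held a UMI of the fixed S phase or mitosis lists. In the 1031 CD8 cells with no such UMI, chosen after the values were seen, the summed level was 803 CPM (cells pooled), against 728 CPM in the 4355 and 3622 CPM in cycling cells. The stricter set thus gave no lower value; its cells had a median of 2892 UMIs.

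Gene by gene, 47 of the 64 replication-dependent genes had enough UMIs to be tested in CD8 cells with edgeR's quasi-likelihood test, mouse as a block and Benjamini-Hochberg adjustment over 9137 genes. At an adjusted p of 0.05 or less, 41 were higher in cycling cells and 0 lower (0 at an unadjusted p under 0.05 as well, since all 47 ratios were above 0). Over all genes 25.1% were called higher and 23.2% lower. The median log2 ratio was 2.16 for the 47 and -0.01 for all genes. A gene with UMIs mainly in cycling cells passes the expression filter only through that class, so the count describes the tested genes; with no filter 45 of 64 were called.

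Among H1 genes, Hist1h1b was measured at 287, 379 and 480 CPM (lowest, median, highest mouse) in cycling CD8 cells and at 26.8, 35.3 and 41.0 CPM in non-cycling cells. The log2 ratio was 3.34 ± 0.10 (SE; adjusted p = 1.08e-13, edgeR; higher in 8 of 8 mice). Hist1h1e, the H1 gene with most UMIs, stood at 343, 461 and 544 CPM against 110, 159 and 195 CPM, a log2 ratio of 1.45 ± 0.10. Hist1h1c, known to be expressed outside S phase too, stood at 110, 158 and 201 CPM against 60.5, 93.3 and 101 CPM, a log2 ratio of 0.72 ± 0.09 (adjusted p = 5.55e-06, edgeR). All 3 were higher in 8 of 8 mice, and the cycling and non-cycling mice overlapped for none of them. The share of all genes without such overlap was not counted, so the separation is only described, here and for Hist1h2ae below. Hist1h1a and Hist1h1d had log2 ratios of 2.93 ± 0.15 and 2.60 ± 0.13, so the 5 H1 genes spanned 0.72 to 3.34.

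H2A genes had the highest ratios, and all 13 tested were called. Hist1h2ae, the member with most UMIs, stood at 400 (LR mouse 2), 825 (median) and 1170 CPM (PBS mouse 8) in cycling CD8 cells and at 42.8, 48.7 and 62.0 CPM in non-cycling cells. The lowest cycling mouse was above the highest non-cycling mouse, and the log2 ratio was 3.87 ± 0.17 (adjusted p = 1.08e-11, edgeR). Hist1h2ap stood at 160, 255 and 349 CPM against 11.98, 15.3 and 19.4 CPM, a log2 ratio of 3.90 ± 0.14. Hist1h2ab stood at 85.0, 138 and 289 CPM against 16.8, 18.4 and 23.9 CPM, a log2 ratio of 2.85 ± 0.12. The range over the 13 ran from 0.93 ± 0.18 for Hist1h2ac to 4.40 ± 0.46 for Hist1h2ah, which had 10.0 CPM in pooled cycling and 0.373 CPM in pooled non-cycling cells.

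Of 11 H2B genes tested, 10 were higher in cycling CD8 cells. Hist1h2bc, which also gives polyadenylated mRNA, stood at 39.2, 57.9 and 115 CPM against 16.2, 24.1 and 43.4 CPM, a log2 ratio of 1.27 ± 0.19. Its groups of mice overlapped, although each mouse was higher in its cycling cells. Hist1h2bj stood at 34.1, 46.6 and 59.7 CPM against 4.33, 6.09 and 8.78 CPM, a log2 ratio of 2.75 ± 0.15. Hist3h2ba stood at 10.5, 13.6 and 26.0 CPM against 9.01, 13.8 and 18.4 CPM, with a log2 ratio of 0.17 ± 0.20 (adjusted p = 0.51, edgeR) and a higher value in 4 of 8 mice.

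All 10 H3 genes tested were called. Hist1h3c stood at 39.6, 63.9 and 71.4 CPM in cycling and 8.78, 11.4 and 14.5 CPM in non-cycling CD8 cells, a log2 ratio of 2.30 ± 0.14. Hist1h3e stood at 41.5, 75.5 and 98.0 CPM against 28.3, 32.5 and 39.2 CPM, a log2 ratio of 1.00 ± 0.15. Hist1h3f had a log2 ratio of 1.21 ± 0.16, and the highest H3 ratio was that of Hist1h3g at 3.49 ± 0.41. Of 8 H4 genes tested, 3 were called higher and 0 lower, beside 25.1% higher and 23.2% lower of all 9137 genes. Hist1h4i stood at 44.1, 48.6 and 70.04 CPM against 9.46, 15.6 and 21.6 CPM, a log2 ratio of 1.71 ± 0.13, and Hist1h4d at 27.4, 47.0 and 58.4 CPM against 14.0, 17.9 and 23.3 CPM, a log2 ratio of 1.24 ± 0.12. Hist2h4 was called at 0.79 ± 0.27. Hist1h4m stood at 9.29, 14.1 and 31.0 CPM against 6.73, 10.4 and 21.9 CPM, a log2 ratio of 0.33 ± 0.19 (adjusted p = 0.172, edgeR). The other H4 genes that did not pass were Hist1h4n at 0.55 ± 0.24, Hist1h4h at 0.46 ± 0.26, Hist1h4c at 0.32 ± 0.18 and Hist4h4 at 0.29 ± 0.30. Whether H4 ratios differ from those of other subfamilies was not tested.

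**Figure D2:**
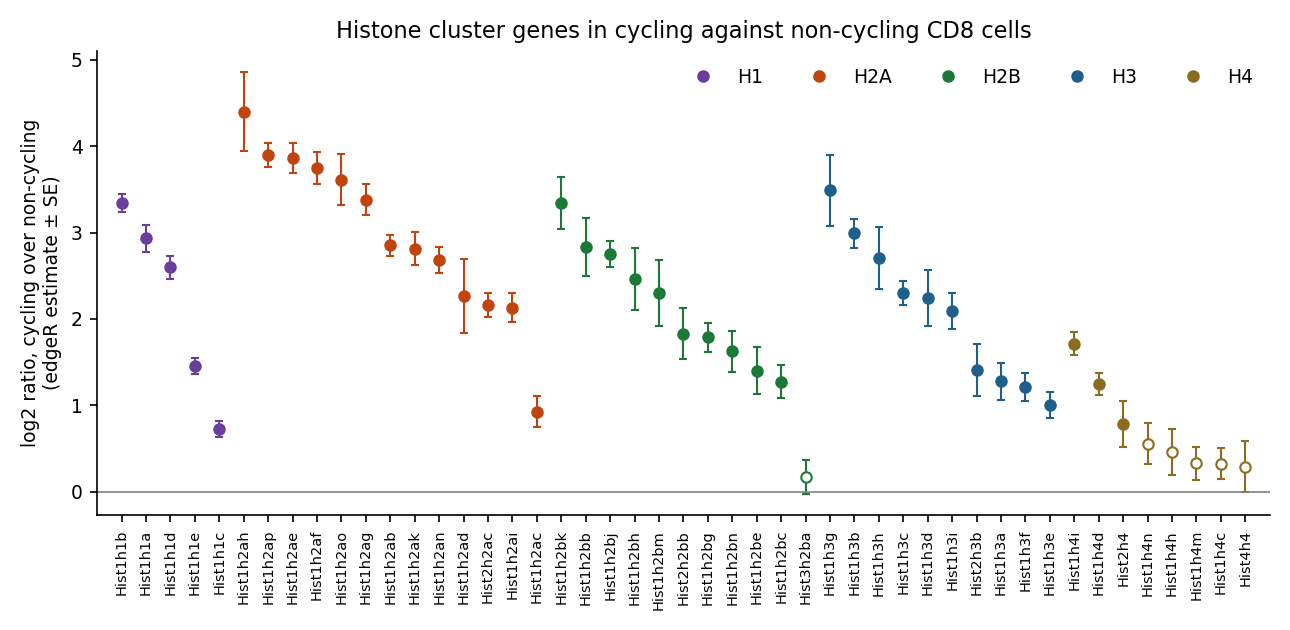
log2 ratio of cycling over non-cycling CD8 cells (edgeR estimate with SE, vertical axis) for the 47 histone cluster genes tested, ordered by subfamily; filled points passed an adjusted p of 0.05 and open points did not. The 6 open points are Hist3h2ba and 5 H4 genes, and the highest points are H2A genes.

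The members were also grouped by where the annotated transcript ends, a grouping chosen after values were seen and described with no test. The 17 tested genes whose model ends within 100 bases of the stem-loop had a median log2 ratio of 2.75 (0.33 to 3.90). The 17 whose model runs over 100 bases past it had a median of 1.24 (0.17 to 3.87). The 6 whose model holds an untranslated region but no stem-loop had 3.14 (1.27 to 4.40). The 7 whose model holds coding bases alone had 2.13 (1.63 to 2.81). Only annotated transcripts were searched, so a stem-loop past the end of a short model was not seen. The model of Hist1h2ah, for example, has 387 coding bases of 405. These 2 groups are thus not genes shown to lack a stem-loop. The median level in non-cycling CD8 cells was 13.9 CPM for models running past the stem-loop and 6.66 CPM for those ending near it. The ranges of all 4 groups overlapped.

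Of 12 divergent H2A and H2B pairs with starts within 500 bases of each other, the partners were often counted at different levels, in CPM, which is not scaled to length. In pooled cycling CD8 cells Hist1h2ae stood at 757 CPM and Hist1h2bg, which starts 176 bases away, at 29.2 CPM. Hist1h2ap stood at 245 CPM and Hist1h2br at 1.45 CPM, but Hist1h2br shared 49 of the 51 words of its first 100 bases with other transcripts, so its count is uncertain. Hist1h2ag and Hist1h2bj, with starts 270 bases apart, stood at 53.1 and 46.3 CPM. In 2 pairs the H2B partner was higher: Hist1h2bk at 24.5 CPM against Hist1h2ah at 10.0 CPM, and Hist1h2bc at 65.2 CPM against Hist1h2ac at 31.0 CPM.

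The genes that make and handle histones mostly rose with the clusters in cycling CD8 cells, to differing extents. Over all 9137 genes, 25.1% were called higher and 23.2% lower, with a median log2 ratio of -0.01. In the list of histone mRNA transcription and 3′ end processing, 7 of 12 tested genes were higher and 0 lower (median log2 0.48). Slbp stood at 150, 201 and 309 CPM in cycling and 78.4, 94.2 and 108 CPM in non-cycling cells, a log2 ratio of 1.09 ± 0.10. E2f1, a transcription factor of S phase entry, had 2.41 ± 0.19 and Casp8ap2, a histone locus body protein, 0.46 ± 0.13. Npat, the histone gene coactivator, at 0.20 ± 0.21, and Lsm11, a U7 snRNP subunit, at 0.26 ± 0.17, did not pass. Among histone chaperones, 11 of 15 were higher and 1, Daxx at -0.53 ± 0.12, was lower. Asf1b, which carries H3 and H4 to new DNA, had 3.52 ± 0.10, and Chaf1a and Chaf1b of chromatin assembly factor 1 had 2.74 ± 0.17 and 1.51 ± 0.16. Nasp (1.10 ± 0.12) and the histone acetyltransferase Hat1 (1.37 ± 0.10) also rose.

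Of the listed histone variants outside the clusters, 6 of 10 tested were higher and 0 lower in cycling CD8 cells. The shares over all 9137 genes were 25.1% higher and 23.2% lower. H2afz stood at 1298, 1806 and 2039 CPM against 474, 575 and 734 CPM, a log2 ratio of 1.54 ± 0.08, and H2afx had 2.27 ± 0.14. H1fx (2.22 ± 0.39) and H1f0 (0.84 ± 0.22) were higher too. The 2 genes of the H3.3 variant did not pass: H3f3a at 0.10 ± 0.05 and H3f3b at -0.00 ± 0.05, with H3f3b at 1605 to 2032 CPM in cycling and 1445 to 2022 CPM in non-cycling cells. All 23 tested S phase genes and all 19 mitosis genes of the fixed lists were called higher, with medians of 2.28 and 3.96; these follow the Mki67 gate itself.

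Cycling Foxp3-positive cells, the gate for regulatory T cells, were also higher in histone mRNA than their non-cycling counterparts. Their summed level was 3706, 4379 and 5719 CPM (lowest, median, highest of 6 mice), against 571, 682 and 948 CPM in non-cycling Foxp3-positive cells of 7 mice. The ratio within a mouse was 6.68 ± 2.07 (SD, n = 6). All 21 genes tested were called higher and 0 lower, against 14.7% higher and 12.2% lower of 4474 genes, and the median log2 ratio was 3.05 against -0.03; with no filter 37 of 58 were called. Hist1h2ae stood at 797, 904 and 1353 CPM against 22.7, 62.3 and 96.5 CPM, a log2 ratio of 3.99 ± 0.17 (higher in 6 of 6 mice). Hist1h2ap had 4.801 ± 0.25, Hist1h1b 3.59 ± 0.21, Hist1h2bj 3.22 ± 0.34, Hist1h3c 2.72 ± 0.33, Hist1h3e 2.38 ± 0.32, Hist1h4d 2.22 ± 0.42 and Hist1h1c 0.97 ± 0.22. Hist1h1c thus had a lower ratio than Hist1h1b in this class too, and the 5 H1 genes tested had a median log2 ratio of 2.61. Of the Foxp3-positive cells, 178 carried no Cd4 UMI. In the fixed lists, 10 of 11 chaperone genes tested, 6 of 9 variants and 2 of 6 transcription and 3′ end processing genes were higher in cycling Foxp3-positive cells, and 0 were lower.

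Cycling CD4 cells came from 3 mice, with summed levels of 2519 (LR mouse 2), 2179 (PBS mouse 7) and 5581 CPM (PBS mouse 8). Non-cycling CD4 cells stood at 731, 876 and 1021 CPM over 8 mice. Of 14 genes tested, 10 were higher and 0 lower at the adjusted p, against 7.07% higher and 6.06% lower of 3678 genes. An unadjusted p under 0.05 was reached by 13, with no all-gene count beside it, so that count is not read as a result. Hist1h2ae stood at 388, 244 and 934 CPM in the 3 mice, a log2 ratio of 3.47 ± 0.34, and Hist1h1b at 289, 295 and 358 CPM, a log2 ratio of 2.85 ± 0.27. Hist1h1c (0.40 ± 0.28) and Hist1h3e (0.89 ± 0.35) did not pass. The count was 7 of 9 tested without PBS mouse 8 and 13 of 19 without LR mouse 2.

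Between cycling classes few histone genes passed the test. Of 38 genes tested in cycling Foxp3-positive against cycling CD8 cells of the same 6 mice, 4 were higher and 0 lower, beside 8.27% higher and 7.86% lower of 6784 genes, so the share of members called was near that of all genes. The 4 were Hist1h2bj, Hist1h2bk, Hist1h2ag and Hist1h2ai. Hist1h2bj stood at 45.5 (LR mouse 2), 169 (LR mouse 3), 69.4 (LR mouse 4), 140 (PBS mouse 6), 121 (PBS mouse 7) and 87.1 CPM (PBS mouse 8) in cycling Foxp3-positive cells, and at 35.9, 59.7, 44.9, 52.5, 43.9 and 48.3 CPM in cycling CD8 cells of those mice. It was higher in 6 of 6 mice, by a log2 ratio of 0.99 ± 0.19 (adjusted p = 0.00061, edgeR). Hist1h2bk (0.83 ± 0.26), Hist1h2ag (0.65 ± 0.20) and Hist1h2ai (0.59 ± 0.19) had adjusted p-values of 0.027, 0.0262 and 0.04 by edgeR, and were higher in 6, 4 and 6 of 6 mice. Hist1h2ag and Hist1h2bj are a divergent pair, and both share 34 and 35 of the 51 words of their first 100 bases with other transcripts. The count was 1 with DESeq2, with a gate of at least 2 Mki67 UMIs or without PBS mouse 6, and 2 without LR mouse 2 or LR mouse 3. Hist1h2ae had 0.27 ± 0.14 and Hist1h1b 0.24 ± 0.13, neither called. Whether the cycling ratio itself differed between the classes was not tested.

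**Figure D3:**
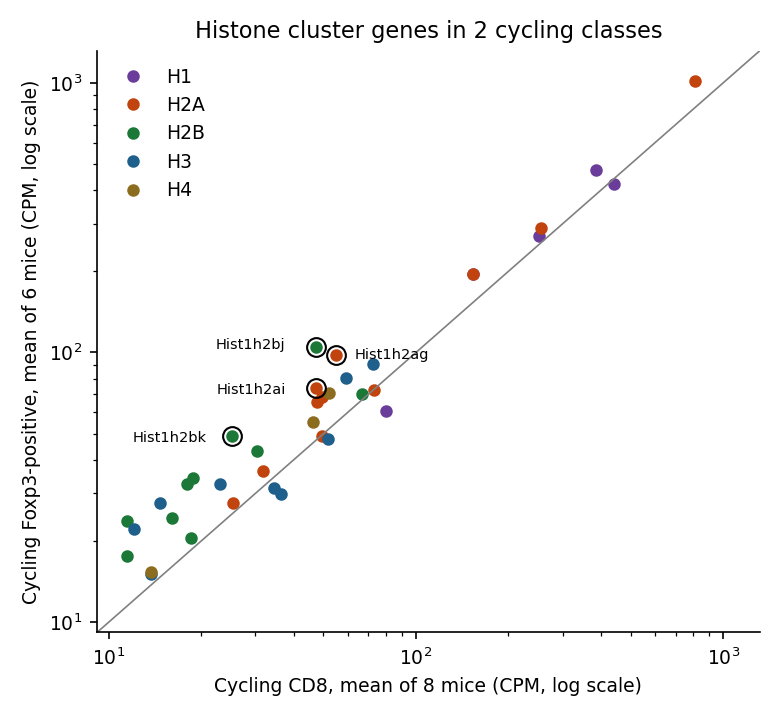
Mean level of the 38 tested histone cluster genes in cycling CD8 cells (8 mice, horizontal axis) and cycling Foxp3-positive cells (6 mice, vertical axis), in CPM on log scales, coloured by subfamily, with a line of equal level. The 4 ringed genes passed an adjusted p of 0.05; Hist1h2bj lies farthest above the line among them.

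In cycling CD4 against cycling CD8 cells, edgeR called 0 of 25 genes (4 had an unadjusted p under 0.05) and DESeq2 called 0 (1 unadjusted), beside 1.5% higher and 1.52% lower of 4938 genes. The test rests on 3 mice, and the unadjusted counts have no all-gene count beside them.

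Within cycling CD8 cells the histone genes varied with the balance of S phase and mitosis genes. The 436 cells with at least 5 UMIs of those 2 lists were split at the median share of S phase UMIs (0.588) into 218 S-led and 218 G2M-led cells, while 208 cells were not split and 47 lay within 0.05 of the split. Median depth was 11187.5 and 11262 UMIs. The summed histone level was lower in S-led cells of every mouse: 2339, 2748 and 4711 CPM against 3119, 5568 and 8311 CPM, a ratio within a mouse of 0.57 ± 0.197 (SD, n = 8; 0.345 to 0.835). The groups of mice overlapped. By subfamily, PBS mouse 8 had H1, H2B and H3 higher in S-led cells, with ratios of 1.18, 1.06 and 1.64. Its H2A and H4 sums were lower, at 0.553 and 0.555, and all subfamily sums were lower in the other mice. Myeloid markers summed to 27.6 to 513 CPM in S-led cells of 7 mice and 3016 CPM in LR mouse 3, and to 28.3 to 309 CPM in G2M-led cells; their part in the difference was not tested.

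Of 35 genes tested, 20 were lower in S-led cells and 0 higher, beside 5.42% lower and 4.5% higher of 5995 genes, with a median log2 ratio of -0.89 against -0.01. The count was 13 with at most 5% mitochondrial UMIs, without LR mouse 1 or without LR mouse 3, and 14 with DESeq2. Hist1h2ae stood at 286 to 844 CPM in S-led and 467 to 1967 CPM in G2M-led cells and was lower in 8 of 8 mice, by a log2 ratio of -1.11 ± 0.15 (adjusted p = 1.69e-05, edgeR). Hist1h1c stood at 62.3 to 161 against 162 to 278 CPM, a log2 ratio of -1.12 ± 0.13, the smallest adjusted p of the members at 2.09e-06 (edgeR). Hist1h2bc had -1.37 ± 0.20, Hist1h4d -1.40 ± 0.23, Hist1h3f -1.15 ± 0.27, Hist1h3c -0.92 ± 0.19 and Hist1h1b -0.72 ± 0.14. Hist1h2bj (-0.19 ± 0.24) and Hist1h4i (-0.39 ± 0.17) did not pass, and Hist1h1a was the single tested member with a ratio above 0, at 0.23 ± 0.24 (adjusted p = 0.625, edgeR). Slbp went the other way: it stood at 196 to 388 CPM in S-led and 132 to 250 CPM in G2M-led cells, a log2 ratio of 0.43 ± 0.12 (higher in 7 of 8 mice). E2f1 (1.95 ± 0.25) and Pcna, the replication clamp (0.79 ± 0.11), were higher in S-led cells, Pcna being a gene of the split itself. The variants H2afx (-2.01 ± 0.13) and H2afz (-0.35 ± 0.06) were lower.

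Cells were also ranked by S phase share into 5 groups of 85 to 89 cells, chosen after values were seen and described with no test. From the lowest to the highest share the summed level, cells pooled, was 4908, 5341, 5152, 3259 and 1079 CPM. The group with the highest S phase share, relative to mitosis UMIs, held the lowest histone level, and Hist1h2ae stood there at 112 CPM against 1235 CPM in the second group. The S phase genes Pcna and Rrm2 were not at their highest in it, with Pcna at 244 CPM against 298 CPM in the third group. Over mice with at least 5 cells, the level there was 1172 ± 232 CPM (SD, n = 7), against 3102 ± 1492 (n = 8) in the group next to it. H2A ran from 2099, 2408 and 2366 through 1339 to 261 CPM, and H1 from 1564, 1891 and 1773 through 1225 to 539 CPM. Slbp stood at 118, 201, 307, 252 and 256 CPM, Ccnb1, a mitotic cyclin, at 199, 87.3, 66.2, 37.6 and 5.55 CPM, and Rrm2, a ribonucleotide reductase subunit, at 158, 275, 378, 367 and 131 CPM. Ccnb1 and Rrm2 belong to the lists that ranked the cells. An S phase share near 1 means few mitosis UMIs, and where in the cycle such cells stood was not measured.

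**Figure D4:**
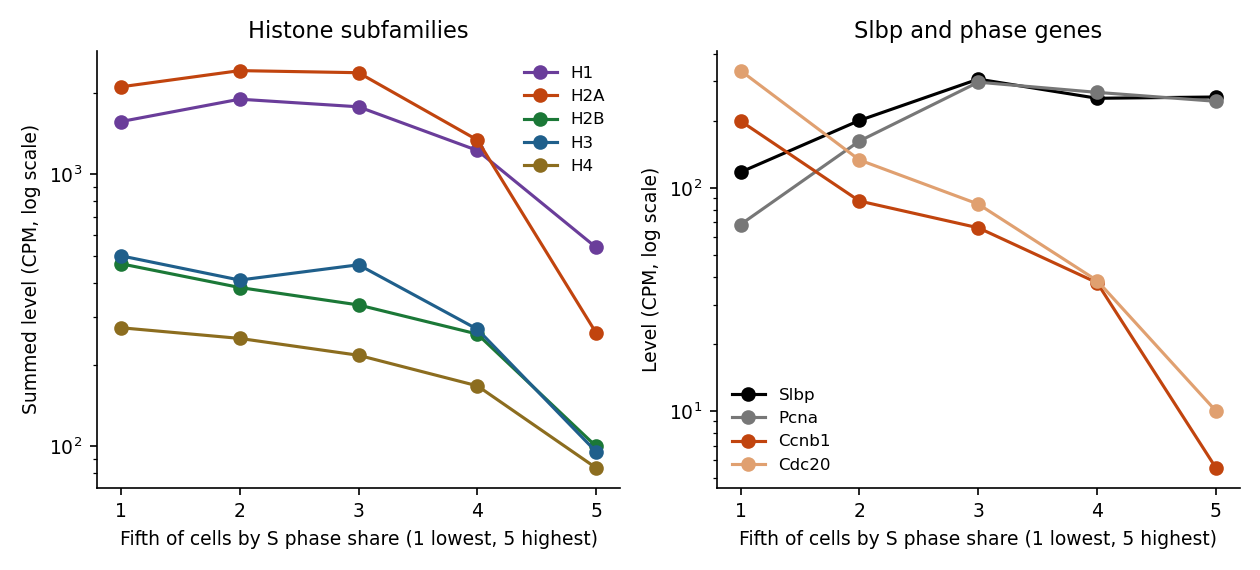
Cycling CD8 cells in 5 groups by their share of S phase UMIs (horizontal axis, lowest to highest), with the pooled level in CPM on log scales for the histone subfamilies (left) and for Slbp, Pcna, Ccnb1 and Cdc20 (right). H2A falls from 2408 CPM in group 2 to 261 CPM in group 5 while Slbp stays at 252 CPM or more from group 3 on.

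LR and PBS mice were compared as the study's question of treatment, in CD8 and Foxp3-positive cells, and no histone cluster gene was called in the cycling or non-cycling cells of either. The CD4 classes were not compared between LR and PBS. The p-values measure the spread between mice. In cycling CD8 cells the summed level was 3680, 2614, 4154 and 3472 CPM in LR mice 1 to 4 and 3942, 4216, 4575 and 3301 CPM in PBS mice 6 to 9, and the groups overlapped. Neither edgeR nor DESeq2 called any of the 37 genes tested (0 each), and 4 in each had an unadjusted p under 0.05; over all 7253 genes 0.0% were called higher and 0.0% lower, with 288 at an unadjusted p under 0.05. The median log2 ratio was -0.08, and 0.03 without LR mouse 2. The 4 members, named after their values were seen, were Hist1h1a, Hist1h2ak, Hist1h2ab and Hist1h2ae. Hist1h1a stood at 39.2, 72.7, 75.3 and 63.7 CPM in LR mice and 103, 92.0, 92.9 and 101 CPM in PBS mice, a log2 ratio of -0.62 ± 0.17 (edgeR adjusted p = 1.00). Its groups did not overlap, and neither did those of Hist1h2ak below. How many of all genes separated in this way was not counted, so no conclusion is drawn from it. Hist1h2ak stood at 60.4, 49.1, 79.2 and 52.9 CPM in LR and 41.3, 48.1, 40.9 and 24.4 CPM in PBS mice, without overlap, a log2 ratio of 0.66 ± 0.22 (edgeR adjusted p = 1.00). Hist1h2ae (-0.51 ± 0.21) and Hist1h2ab (-0.59 ± 0.24) were lower on average in LR mice, with overlap. The other members tested lay between these ratios, and Slbp was at -0.07 ± 0.18. In LR mouse 3 the myeloid markers were at 1364 CPM, as given above; their part in these values was not tested, and without that mouse 0 of 42 members were called.

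**Figure D5:**
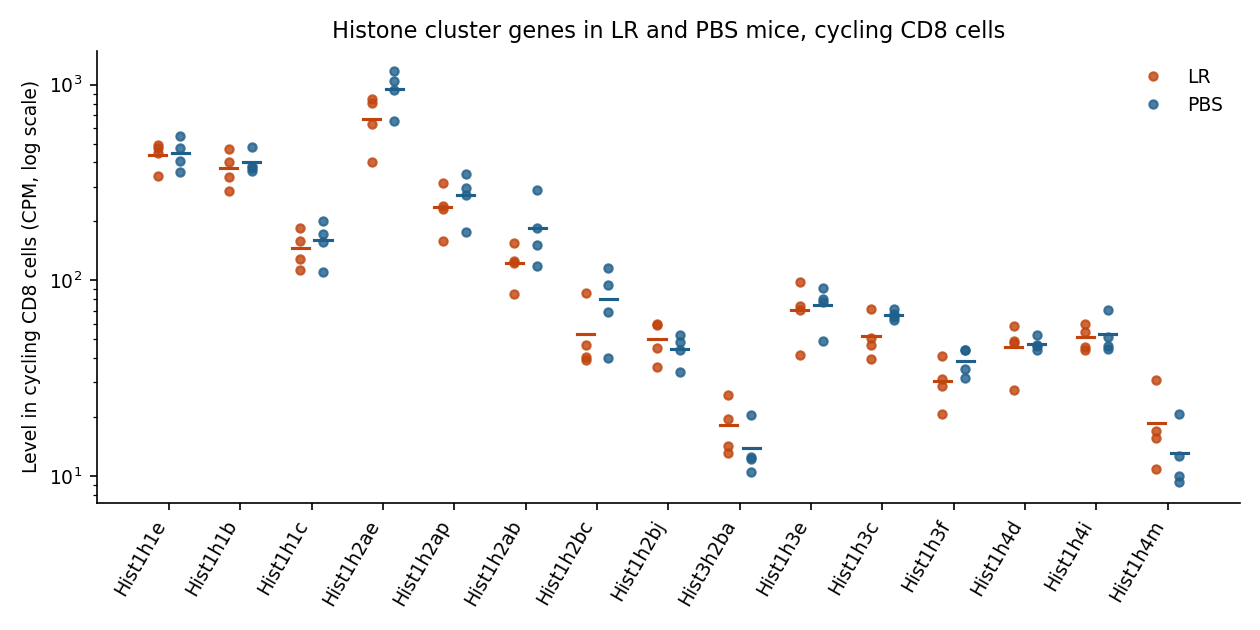
Level in cycling CD8 cells (CPM, log scale) of the 3 histone cluster genes with most UMIs in each subfamily, with 1 point per mouse and a line at the mean of the 4 LR and of the 4 PBS mice. The points overlap for Hist1h2ae, at 400 to 841 CPM in LR and 648 to 1170 CPM in PBS mice.

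In non-cycling CD8 cells the summed level was 800, 752, 778 and 807 CPM in LR mice and 754, 581, 711 and 805 CPM in PBS mice. Of 35 genes tested 0 were called by edgeR (3 at an unadjusted p under 0.05) or DESeq2 (1 unadjusted), beside 0.0% higher and 0.0% lower of 9303 genes. The largest ratios at an unadjusted p under 0.05 were Hist1h4i at 0.55 ± 0.19 and Hist1h2ac at 0.53 ± 0.21, both with edgeR adjusted p = 0.52. Hist1h2ae, lower on average in LR mice among cycling cells, was at 0.27 ± 0.11 here. The test of that difference, the interaction of cycling and treatment in CD8 cells, called 0 of 47 members by edgeR (7 at an unadjusted p under 0.05) and 0 by DESeq2 (2 unadjusted), beside 0.0% higher and 0.0% lower of 9137 genes. It gave -0.80 ± 0.27 for Hist1h2ae and -0.99 ± 0.30 for Hist1h2bc (edgeR adjusted p = 0.694 for each). In this paragraph the shares of all genes are at the adjusted p. The unadjusted counts of members have no all-gene count beside them, so they are not read as a result.

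Among Foxp3-positive cells 0 of 18 members tested were called between 3 LR and 3 PBS mice in cycling cells (0 unadjusted, by edgeR and DESeq2), beside 0.0% higher and 0.0% lower of 2933 genes. The summed level was 4170, 4790 and 3706 CPM in LR mice 2 to 4 and 5719, 4587 and 4132 CPM in PBS mice 6 to 8. In non-cycling Foxp3-positive cells 0 of 5 were called (0 unadjusted, by edgeR and DESeq2), beside 0.0% higher and 0.0454% lower of 4408 genes.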

How the data were processed

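The authors deposited UMI counts per gene and cell from 1 lane, made with Cell Ranger 4.0.0 on GRCm38 per the submitters' processing notes, with counts of 9 hashtags. Of 16969 barcodes, 14474 passed a floor of 500 detected genes and a ceiling of 10% mitochondrial UMIs. Cells with exactly 1 hashtag (threshold from a mixture model; 2570 held several and 679 none) and no Scrublet call (expected rate 0.1; 819 removed) were kept, 10406 in all. For each mouse, the UMIs of a class were added up, and these sums entered edgeR 4.0.16 (TMM, quasi-likelihood) over all genes, mouse as a block for comparisons within animals, since both classes came from the same animal; DESeq2 1.42.0 was an alternative. Depth per mouse is given in the results. Scripts were tested on simulated data with a fixed spread. Of simulated 2-fold changes, 89 of 100 were recovered in cycling against non-cycling CD8 cells, with 9 false calls. Between LR and PBS in cycling CD8 cells 50 of 92 were recovered, with 7 false calls, and 85 of 86 at 4-fold. A 2-fold change between LR and PBS could thus be missed. CPM was computed from summed UMIs. Named genes were the 3 members with most UMIs per subfamily. The members and lists were chosen with earlier results of these data known. The hashtag LR_mouse_5 was left out, since the labels name 8 mice. The labels call the cells CD3+ T cells and also CD8+ sorted cells. Alternatives were normalization, filters, gates, doublets, thinning and leaving out each mouse.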

Additional observations from a re-analysis of the deposited data

Results flagged for a closer look

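In cycling CD8 cells of the 4 LR mice, Hist1h2bc stood at 86.1 CPM in LR mouse 4 and at 39.2 to 46.7 CPM in the other 3, a gap that is 0.839 of the group's range. It was the single such gap among 69 groups of mice examined, and chance alone gives about 1 in 20 groups.

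The hashtag named LR_mouse_5 held 5053 counts over all barcodes, with at most 181 in any one, and entered no comparison.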

How the results depend on the processing

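Among alternative values of the main results (counts of histone genes called, summed ratios and shares), 168 stayed close to the value reported and 23 moved. Counts of members called in cycling against non-cycling Foxp3-positive cells (21) were 37 with no low-count filter and 10 with no replicate block, where the mouse pairing was dropped and fewer genes were tested; in CD4 cells (10) they were 16 and 6. Dropping the block gave 14 in place of 20 for S-led against G2M-led cells, and 30 in place of 41 in cycling against non-cycling CD8 cells. For cycling Foxp3-positive against cycling CD8 cells (4) the count was 1 with DESeq2 or at least 2 Mki67 UMIs, 2 with no filter, and 1 to 5 leaving out each mouse. With no filter 1 gene was called in cycling CD4 against cycling CD8 cells and 2 in the interaction, where none was before. S-led against G2M-led cells (20) gave 13 with at most 5% mitochondrial UMIs and 13 to 25 leaving out each mouse. The ratio of summed levels in CD8 cells (5.09) was 3.64 as a mean over cells and 7.15 with at least 2 Mki67 UMIs. Shares of cells with a histone UMI were 97.2% unthinned and 83.3% at 2000 UMIs in cycling CD8 cells, 87.2% and 70.8% in non-cycling CD8 cells, and in Foxp3-positive cells 96.9% in cycling and 88.8% in non-cycling cells unthinned, 92.6% and 84.7% at 3000 UMIs, and 87.9% and 73.2% at 2000 UMIs. Changes of sign were examined gene by gene for the 3 members with most UMIs per subfamily, in the comparisons of cycling with non-cycling cells, of cycling Foxp3-positive with cycling CD8 cells and of S-led with G2M-led cells. Those found were in Hist3h2ba in CD8 cells (-0.0225 to 0.2412 leaving out each mouse, the lowest without LR mouse 4), Hist1h2bj in S-led cells (0.0048 with at most 5% mitochondrial UMIs), and, in cycling Foxp3-positive against CD8 cells, Hist1h1e (0.0134 with a Top2a gate), Hist1h2ap (-0.0274 with no filter, -0.0565 to 0.2101 leaving out each mouse, below 0 without LR mouse 4 or PBS mouse 6), Hist1h2bc (-0.0084 with no filter, -0.1505 with a Top2a gate, -0.0321 to 0.2114 leaving out each mouse, below 0 without PBS mouse 6) and Hist1h3f (-0.0212 with DESeq2, -0.0127 with no filter, -0.0400 with at least 2 Mki67 UMIs, -0.3534 to 0.2184 leaving out each mouse, below 0 without LR mouse 2). Other members were not followed singly: in cycling against non-cycling CD8 cells the lowest ratio was -0.38 with a Top2a gate and -1.62 with no filter. The median over members between LR and PBS went from 0.17 to -0.02 without LR mouse 1 in non-cycling CD8 cells, with 16 in place of 25 of 35 above 0, and from -0.29 to 0.03 in cycling Foxp3-positive cells with at least 2 Mki67 UMIs. In non-cycling Foxp3-positive cells (-0.04) it ran from -0.41 to 0.28 leaving out each mouse. The settings were varied one at a time, and the causes of these changes were not tested. Over all genes, DESeq2 called 351 higher and 187 lower (658 and 547 by edgeR) in Foxp3-positive, 152 and 83 (260 and 223) in CD4, 345 and 309 (561 and 533) in Foxp3-positive against CD8, 35 and 21 (74 and 75) in CD4 against CD8 and 113 and 183 (270 and 325) in S-led cells, and 3 and 2 (0 and 0) between LR and PBS in non-cycling CD8 cells. With no filter LR against PBS gave 44 higher and 26 lower genes in cycling CD8, 21 and 11 in cycling and 20 and 19 in non-cycling Foxp3-positive cells, and 17 and 83 in the interaction. The gate of at least 2 Mki67 UMIs left too few mice for CD4 cells and was not run there. Few cycling cells per mouse limit the Foxp3-positive and CD4 comparisons.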
